A study of Homo sapiens with 8 samples.

Results

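The genes described here are the ZNF zinc finger genes that PC-3 prostate cancer cells express at a clear array signal. They were chosen by name and by level: a symbol made of ZNF, a number and at most 1 letter, and a mean log2 value of at least 6 over all 8 arrays. Of 471 ZNF genes measured, 226 met this level. PC-3 is an established human prostate cancer line that grows without androgen. In this study 4 clonal isolates carried a lentiviral p-Lenti vector with RWDD4 (clones 17, 24, 5 and 6), and 4 control clones carried the empty vector (clones 2, 3, 4 and 5). Both groups had been selected with an antibiotic that the labels spell blastocydin, were grown under the same protocol and received no treatment beyond it. RNA of each clone was read on 1 Affymetrix array. The clones are the replicates (n = 4 per group). The groups are sets of separate clonal isolates, so differences between isolates are part of any difference between groups.

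Most ZNF proteins carry zinc fingers of the C2H2 kind, in which a cysteine pair and a histidine pair hold a zinc ion. Arrays of such fingers read DNA sequence. Members were chosen by symbol, and their domains were not read from sequence. The largest subfamily adds a KRAB domain, which binds the corepressor KAP1 (gene TRIM28). KAP1 in turn brings the histone methyltransferase SETDB1, HP1 proteins and the NuRD complex, and many KRAB targets are transposable elements. KRAB zinc finger genes arose by tandem duplication and sit in clusters, most of them on chromosome 19. Other ZNF proteins have no KRAB domain and act as activators, as partners of chromatin complexes, or on RNA and ribosomes. Sequences of the duplicated genes are alike, so a probe set may also read a near copy, and this was not tested.

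The level rule used the mean of both groups, and levels are therefore given as a description. Member means ran from 6.01 to 9.78 with a median of 7.06. ZNF133 and ZNF488 lay just inside the limit at 6.01 each, and ZNF467 and ZNF607 just outside at 5.99 each. In 201 members both group means reached 6, in 22 the mean of the RWDD4 clones alone did, and in 3 the mean of the control clones alone did. The 22 genes could pass only through the group in which they were high, so a difference in them is partly set by the rule. The members lie on 21 chromosomes in a human reference gene table (GRCh38.p14), with 94 on chromosome 19 and 23 on chromosome 16, and 224 are protein-coding.

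RWDD4 itself was higher in each RWDD4 clone than in any control clone, at 10.30 ± 0.29 against 7.36 ± 0.58 (SD, n = 4 each), with a fitted difference of 2.94 (SE 0.25) on the log2 scale. The 8 arrays had overall medians of 4.89 to 4.96 over their probe sets. Over the genes with a mean of at least 6 the medians of the groups stood apart, since no RWDD4 clone was under 7.67 (highest 7.72) and no control clone over 7.49 (lowest 7.26). Epithelial keratins KRT18 and KRT19 had means between 10.24 and 11.01 in both groups, while the luminal prostate marker KLK3 had means of 5.76 and 5.81. Of the marker list for epithelium, 4 of 5 genes were measured (KRT8, KRT18, KRT19 and EPCAM), and the 3 keratins fell by 0.28 to 0.54 in the RWDD4 clones. The 4 measured blood and stromal markers (CD14, DCN, PECAM1 and VWF) had group means of 2.70 to 5.57, and CD14 and VWF fell by 0.42 and 0.31. Whether any of these markers has a part in the results was not tested.

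Of the 226 members, 108 rose in the RWDD4 clones and 47 fell, by limma at an adjusted p under 0.05 over all 14884 genes. Rises made up 47.8% of the members. The share of rises was 25.1% over all genes and 38.4% over the 7658 genes with a mean of at least 6. Falls made up 20.8% of the members, against 21.6% over all genes and 28.7% over genes of that level. The median difference was 0.32 on the log2 scale over the members, -0.08 over all genes and 0.03 over genes at the same level. Both depended on the scaling. After quantile normalization 98 members rose and 62 fell, with a median of 0.20, and 3429 of all genes rose and 3694 fell. After median centring 104 members rose and 66 fell, with a median of 0.19, and 3307 of all genes rose and 5765 fell. On the deposited values, groups were apart in 104 members higher and 42 lower in the RWDD4 clones, while 23.7% and 21.1% of all genes had such groups. Of the 7658 genes with a mean of at least 6, groups were apart in 2804 higher and 2059 lower. Of the 104 members, 17 reached the level limit through the RWDD4 clones alone. The 2 directions differed in size. Rises ran from 0.28 to 2.64 with a median of 0.84, and 38 members rose at least 2-fold. Falls ran from 0.25 to 0.78 with a median of 0.40, and 0 of 226 members fell 2-fold. Of all 7658 genes with a mean of at least 6, 1269 rose and 55 fell at least 2-fold. The difference in size was thus not particular to the members. Of the 38 members, 10 were among the 22 that reached the level limit through the RWDD4 clones alone. Among the 201 members with both group means at 6 or more, 90 rose and 46 fell, with a median difference of 0.25. These are counts of genes in 1 set of 8 clones, and no test of the set was made.

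**Figure D1:**
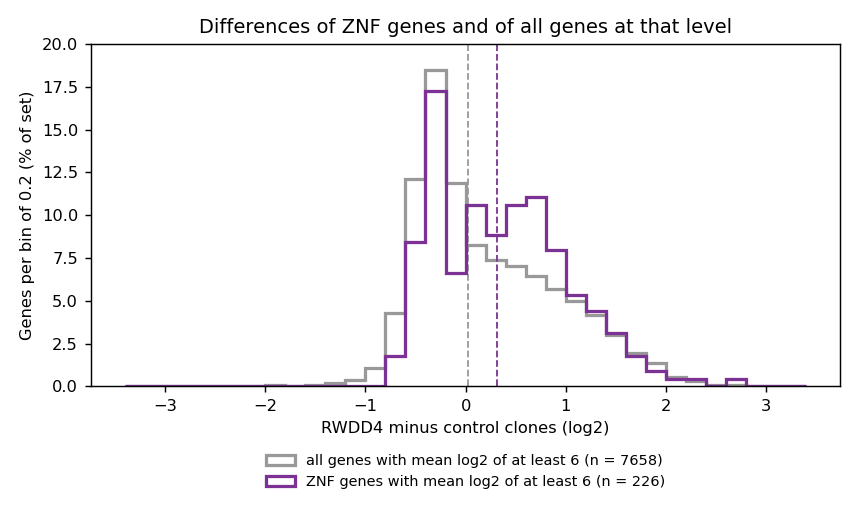
Distribution of the fitted differences (RWDD4 minus control clones, log2) in bins of 0.2, as a percent of each set, for 226 ZNF genes and for all 7658 genes with a mean log2 of at least 6; dashed lines mark the medians. The ZNF genes have their median at 0.32 and that of all genes is 0.03, and no ZNF gene lies below -0.78.

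Control clone 2 stood apart in most of the genes that rose. The median over the 108 genes was 7.41 to 7.59 in the RWDD4 clones, 6.61 to 6.79 in control clones 3, 4 and 5, and 6.24 in control clone 2. Control clone 2 was the lowest control clone in 91 of these 108 genes and the highest control clone in 36 of the 47 that fell. Such counts were not made over all genes. Over all 7658 genes with a mean of at least 6, its array median was also the lowest, at 7.26. The other control clones had 7.39 to 7.49 there, so its shift was not particular to the ZNF genes. Without control clone 2, 106 members rose and 39 fell, with a median difference of 0.26. Of these, 105 and 39 were among the genes first called. Clone 2 also lay farthest out along the leading axis of variation within groups, at -0.48, with the other control clones at -0.20 to -0.10 and the RWDD4 clones at 0.16 to 0.29. The groups do not overlap on that axis. With each array's position on it as a covariate, limma called 0 of the 226 members. In that fit 25 members had an unadjusted p under 0.05, and the median difference was 0.05. The calls in this text thus do not hold beside that covariate. Because the axis also parts the groups, this fit cannot tell group and axis position apart.

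The largest rise was that of ZNF280C (Entrez gene 55609, probe set 17114075). Its values were 7.83, 7.19, 7.79 and 7.60 in RWDD4 clones 17, 24, 5 and 6, and 4.17, 5.37, 5.24 and 5.07 in control clones 2, 3, 4 and 5. The lowest RWDD4 clone stood well above the highest control clone. The difference was 2.64 (SE 0.24), or 6.25-fold. ZNF280C is 1 of the 22 genes that reached the level limit through the RWDD4 clones alone, so these values are a description. Its control mean of 4.96 equalled the highest of the array medians, and without a measured background the fold could not be classed as exact or as a lower bound. ZNF699, a gene mutated in the developmental syndrome DEGCAGS, lay, in the same order of clones, at 8.31, 8.24, 8.18 and 8.56 in the RWDD4 clones and at 5.11, 6.02, 6.31 and 6.75 in the control clones. Its groups were parted by a wide gap, with a difference of 2.28 (SE 0.28), or 4.84-fold (limma adjusted p 0.000148).

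ZNF451, a ligase that joins SUMO chains to proteins, read 8.49, 8.25, 8.47 and 9.18 in the RWDD4 clones and 5.59, 6.80, 6.51 and 6.93 in the control clones. This was a rise of 2.14 (SE 0.28), and RWDD4 clone 6 stood above the other 3. A dimmer second probe set of ZNF451 rose by 0.77. ZNF106, which encodes an RNA-binding protein, was at 9.41, 9.11, 9.41 and 9.41 in the RWDD4 clones and at 6.43, 7.85, 7.18 and 7.91 in the control clones, a rise of 1.99 (SE 0.28). The control clones were spread over more than 1 log2 unit, and 3 of the RWDD4 clones were equal to 2 decimals. The other genes of the leading 12 were ZNF770 (1.83), ZNF322 (1.77), ZNF184 (1.71), ZNF627 (1.66), ZNF507 (1.64), ZNF121 (1.58), ZNF35 (1.53) and ZNF24 (1.46). Both probe sets of ZNF322 rose, whereas a second, dim probe set of ZNF770 (mean 2.99) lay at 0.20 and did not pass. ZNF184, ZNF627 and ZNF507 had control means of 5.77, 5.54 and 5.27 and, like ZNF280C, reached the level limit through the RWDD4 clones alone. Limma adjusted p values of the other 8 genes ran from 0.000132 (ZNF35) to 0.00417 (ZNF24).

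The largest fall was that of ZNF513 (Entrez gene 130557, probe set 16895838), a gene mutated in a form of retinitis pigmentosa. It was at 8.10, 8.18, 8.16 and 7.86 in RWDD4 clones 17, 24, 5 and 6, and at 8.98, 9.06, 8.69 and 8.69 in the control clones. All 4 RWDD4 clones lay below all 4 control clones, by 0.78 (SE 0.12), or 1.72-fold (limma adjusted p 0.000469). ZNF593, a factor of ribosome assembly, fell by 0.66 (SE 0.15) from 8.96 ± 0.30 to 8.30 ± 0.17 (SD, n = 4 each). ZNF511 had the highest mean of the members, with 9.31, 9.46, 9.52 and 9.54 in the RWDD4 clones against 9.97, 10.11, 10.13 and 10.21 in the controls (each in rising order), a fall of 0.64 (SE 0.09). The groups were narrow and apart in this gene, and the SD was 0.10 in both.

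ZNF787 fell by 0.61, ZNF581 by 0.58 and ZNF837 by 0.55. The other 6 genes named for their falls were ZNF653 and ZNF503 (0.53 each), ZNF282, ZNF74 and ZNF580 (0.52 each) and ZNF408 (0.51). ZNF503 encodes a corepressor of the NocA family, ZNF282 a protein first found by its binding to a retroviral promoter, and ZNF408 is mutated in a disorder of retinal vessels. In ZNF837 the 4 RWDD4 clones lay within 6.63 to 6.72 and the control clones within 7.10 to 7.36. The fall of ZNF408 did not pass when the trend over genomic span was removed (limma adjusted p 0.0534).

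**Figure D2:**
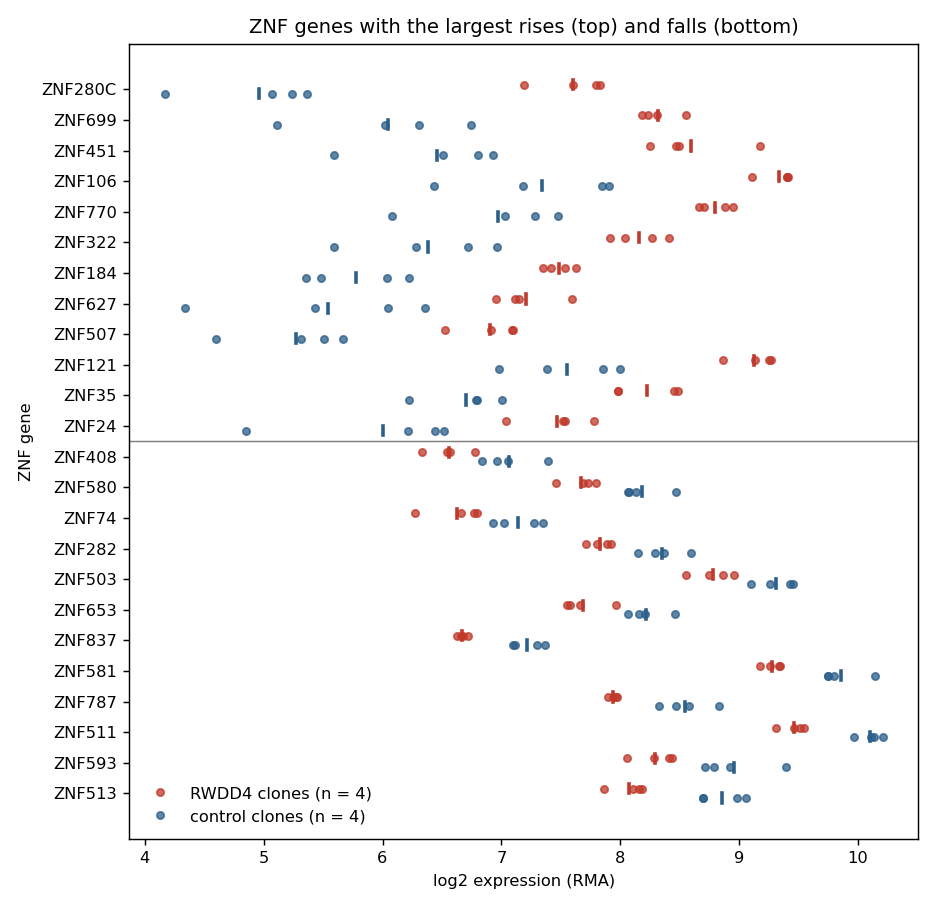
Log2 expression in each clone of the 12 ZNF genes with the largest rises and the 12 with the largest falls among those that passed the test without overlap; points are clones, short vertical lines are group means. Rises reach 2.64 (ZNF280C) and falls 0.78 (ZNF513), and the control clones are more widely spread than the RWDD4 clones in the genes that rose.

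Promoters of 192 members were found by gene ID in a RefSeq promoter table (GRCh38.p14), and the 250 bases before the first start listed for a gene were searched on both strands. The 6 sequences printed here belong to the 2 largest rises, to ZNF143 and ZNF627 among the genes that rose, and to ZNF513 and ZNF787 among those that fell. They were picked after the matches had been seen, to show promoters with and without them. Each is written 5′ to 3′ in the direction of the gene, and capitals mark matches to CCGGAAG, the core read by ETS factors, and to CCAAT, the box bound by NF-Y, or to their reverse complements; the 2 motifs share no overlapping match in these windows.
ZNF280C (chrX:130268900-130269149, minus strand): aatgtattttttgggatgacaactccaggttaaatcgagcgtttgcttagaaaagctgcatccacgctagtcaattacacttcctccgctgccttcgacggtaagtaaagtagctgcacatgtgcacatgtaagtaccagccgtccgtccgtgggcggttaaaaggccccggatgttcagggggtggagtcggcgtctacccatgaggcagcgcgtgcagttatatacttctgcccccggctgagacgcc
ZNF699 (chr19:9309839-9310088, minus strand): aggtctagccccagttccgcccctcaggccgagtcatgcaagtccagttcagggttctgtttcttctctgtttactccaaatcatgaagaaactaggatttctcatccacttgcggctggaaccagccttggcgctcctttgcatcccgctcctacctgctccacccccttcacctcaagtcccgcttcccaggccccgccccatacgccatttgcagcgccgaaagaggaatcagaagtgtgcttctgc
ZNF143 (chr11:9460762-9461011, plus strand): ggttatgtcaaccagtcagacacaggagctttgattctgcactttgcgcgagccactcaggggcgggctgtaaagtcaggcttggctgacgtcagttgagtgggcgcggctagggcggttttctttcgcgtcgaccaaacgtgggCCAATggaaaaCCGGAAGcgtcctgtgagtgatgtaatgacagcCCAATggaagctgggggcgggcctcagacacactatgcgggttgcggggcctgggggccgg
ZNF627 (chr19:11597233-11597482, plus strand): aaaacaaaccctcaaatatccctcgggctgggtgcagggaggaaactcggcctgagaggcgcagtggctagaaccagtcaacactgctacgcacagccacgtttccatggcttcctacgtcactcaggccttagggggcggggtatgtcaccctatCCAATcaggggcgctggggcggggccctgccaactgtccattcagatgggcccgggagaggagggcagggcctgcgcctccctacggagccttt
ZNF513 (chr2:27380735-27380984, minus strand): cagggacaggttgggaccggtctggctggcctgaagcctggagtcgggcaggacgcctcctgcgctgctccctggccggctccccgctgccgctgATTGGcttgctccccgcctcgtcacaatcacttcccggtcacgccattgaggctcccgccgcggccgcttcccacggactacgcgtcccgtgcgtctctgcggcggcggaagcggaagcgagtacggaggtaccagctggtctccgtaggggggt
ZNF787 (chr19:56121296-56121545, minus strand): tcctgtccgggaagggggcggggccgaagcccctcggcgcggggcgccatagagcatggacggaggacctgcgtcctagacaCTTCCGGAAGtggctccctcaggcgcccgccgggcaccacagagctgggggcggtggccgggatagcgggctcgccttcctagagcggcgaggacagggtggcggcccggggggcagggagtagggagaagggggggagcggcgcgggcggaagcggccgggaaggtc
The promoters of ZNF280C and ZNF699 hold neither motif, and their GC contents were 53.2% and 56.4%. That of ZNF143 holds 1 CCGGAAG match and 2 CCAAT matches. The promoter of ZNF787 holds CCGGAAG on both strands, in 2 matches that overlap each other, and has a GC content of 74.8%.

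Over the 192 promoters, 32.8% held CCGGAAG, against 15.7% of 5862 promoters of other genes with a mean of at least 6 and 8.82% of all 27305 genes of the table. The motif was in 30.5% of the promoters of members that rose, 24.4% of those that fell and 42.9% of those that did not pass. CCAAT was in 48.4% of the promoters of members that rose and 34.1% of those that fell, with 35.1% and 34.9% in the other genes that rose and fell and 33.0% over the whole table. GGGCGG, a core read by SP factors, was in 69.5% and 68.3% of the promoters of members that rose and fell, in 69.7% of the other genes with a mean of at least 6 and in 42.3% over the table. Median GC content was 62.0% in the promoters of members that rose and 65.2% in those that fell. In the other genes of that level it was 64.4% and 67.2%. Across the 192 members GC content and difference gave a Spearman rho of -0.21, and across the 5862 other genes one of -0.14. These points share arrays and base composition, and a match to such letters is a description of the window and not a site.

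Among members that act as sequence-specific factors outside the KRAB class, 11 of the 14 listed had a mean of at least 6, and 7 rose and 1 fell, where 38.4% and 28.7% of all genes at that level did. The median difference of the 11 was 0.70, and 0.03 over all genes at that level. Their median genomic span was 33578 bp. Genes without a ZNF symbol, at that level and with a span over 28470 bp, had 59.4% rises, 13.6% falls and a median of 0.53. A part of span in these rises was not tested. The role lists here and below were chosen with earlier results of these data known, so their counts are descriptions. ZNF143 binds many promoters and chromatin loop anchors and drives transcription of small nuclear RNA genes. It was at 7.44, 7.31, 7.78 and 7.32 in RWDD4 clones 17, 24, 5 and 6 and at 5.77, 6.36, 5.92 and 6.05 in the control clones, a rise of 1.44 (SE 0.15; limma adjusted p 7.53e-05). ZNF76, its closest relative, went the other way, from 7.37 ± 0.18 to 6.87 ± 0.06 (SD, n = 4 each), a fall of 0.49. The clones of both groups stood apart in each of these 2 genes. ZNF318, known for binding the androgen receptor, rose by 1.37, ZNF462 by 1.32 and ZNF281, a factor of pluripotency and epithelial plasticity, by 0.98. ZNF217, an oncogene amplified in breast cancer, rose by 0.70 (SE 0.17). ZNF410, an activator of the NuRD gene CHD4, rose by 0.46 (limma adjusted p 0.00749), but not after quantile normalization (0.0984) or with the span trend removed (0.0555), and CHD4 rose by 0.64. ZNF384, ZNF395 and ZNF335 did not pass, at 0.05, -0.15 and -0.26, although ZNF335 and ZNF395 fell after quantile normalization, median centring and cyclic loess.

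Of 14 listed KRAB genes with a described target, 5 had a mean of at least 6, and 2 rose and 1 fell (38.4% and 28.7% over all genes at that level). ZNF417, which binds endogenous retroviruses, rose by 1.10 (SE 0.17) from a control mean under the level limit (5.53), and ZNF445, which protects imprinted methylation, rose by 0.85 (SE 0.11). A second probe set of ZNF445 lay at 0.20 and did not pass. ZNF765, known for binding transposable elements, fell by 0.46 (SE 0.14), with overlapping groups, and did not pass without RWDD4 clone 6 (limma adjusted p 0.0574). ZNF649 lay at 0.65 (SE 0.29), with an SD of 0.73 among the RWDD4 clones. ZNF274, which brings SETDB1 to the 3′ ends of ZNF genes, had means of 6.84 and 6.82 and a difference of 0.01 (SE 0.11).

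In the list of ZNF partners of chromatin complexes, 10 of 14 had a mean of at least 6, and 5 rose and 3 fell. Over all genes at that level 38.4% rose and 28.7% fell. The 10 genes had a median genomic span of 62023.5 bp. Genes without a ZNF symbol, at that level and with a span over 28470 bp, had 59.4% rises and 13.6% falls. Whether span has a part here was not tested. Beside ZNF280C and ZNF451, ZNF644, which guides the methyltransferases G9a and GLP, rose by 1.46 (SE 0.20), and ZNF518B, another G9a partner, by 1.29 (SE 0.17). ZNF518B too reached the level limit through the RWDD4 clones alone. The 3 genes of the complex around ZMYND8 did not move alike, with ZNF532 at 0.90 (rose), ZNF592 at 0.22 (not past the test) and ZNF687 at -0.40 (fell). ZNF512B fell by 0.39 and ZNF276 by 0.41, and ZNF827, a recruiter of NuRD to telomeres, lay at 0.31 and did not pass. ZNF687 did not pass with the span trend removed (limma adjusted p 0.067), nor ZNF276 without RWDD4 clone 5 (0.0605).

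Of 14 genes listed for roles on RNA, ribosomes or the spindle, 11 had a mean of at least 6. Of these 11, 7 rose and 2 fell (38.4% and 28.7% over all genes at that level). The roles were not tested, and none is given here for ZNF800 and ZNF706. ZNF207 (BuGZ), which loads BUB3 onto kinetochores, was at 9.98, 9.96, 10.15 and 10.03 in RWDD4 clones 17, 24, 5 and 6 and at 8.81, 9.49, 9.23 and 9.42 in the control clones, a rise of 0.79 (SE 0.14). Its groups did not overlap. ZNF326 of the DBIRD complex, which couples transcription to splicing, rose by 1.13, the nucleolar ZNF330 by 1.25, ZNF800 by 0.97, ZNF830 by 0.60 and ZNF706 by 0.56, the last from a control mean of 5.81. ZNF598, the ubiquitin ligase that marks collided ribosomes, fell by 0.37 (SE 0.09), as did ZNF593. ZNF622, another ribosome assembly factor, lay at -0.09, and the double-stranded RNA binder ZNF346 at 0.25, neither past the test.

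The partners of KRAB silencing were read from a list of 34 genes, of which 29 were measured. The list was chosen with earlier results of these data known, so counts over the 29 are a description. Of these, 19 rose and 2 fell (EHMT1 by 0.23 and DAXX by 0.24, each short of the test when 1 of 5 or more clones was left out), with a median of 0.69 against -0.08 over all genes. The shares over all genes were 25.1% and 21.6%, and over those with a mean of at least 6 they were 38.4% and 28.7%. The median of the latter was 0.03. The partners had a median genomic span of 41544 bp. Genes without a ZNF symbol, at that level and with a span over 28470 bp, had 59.4% rises, 13.6% falls and a median of 0.53. With the trend over span removed from each array, 19 partners passed in either direction, against 21 on the deposited values. A part of span in the rises of the partners was not tested beyond this count. TRIM28, which encodes KAP1, did not pass, with 11.41 ± 0.09 in the control and 11.21 ± 0.09 in the RWDD4 clones (SD, n = 4 each) and a difference of -0.20 (SE 0.09; limma adjusted p 0.0824). After median centring TRIM28 fell by 0.33 (limma adjusted p 0.0187), and after quantile normalization by 0.29 (0.0235). TRIM33, a relative of TRIM28, rose by 1.72 (SE 0.22), ATF7IP, which stabilises SETDB1, by 1.69 (SE 0.20), the histone methyltransferase gene SUV39H2 by 1.62 (SE 0.24) and MORC3 by 1.58 (SE 0.14). SUV39H2 lay under the level limit, with means of 5.58 in the RWDD4 and 3.96 in the control clones. Its control mean was also under the array medians of 4.89 to 4.96, and a background level was not measured. The HP1 gene CBX5 rose by 1.44 and the NuRD deacetylase HDAC2 by 1.25. SETDB1 was not analysed here.

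Chromosome 19 carried 94 of the 226 members, and 50 of them rose and 18 fell (53.2% and 19.1%). The other genes of chromosome 19 with a mean of at least 6 gave the reverse picture: 16 of 528 rose (3.03%) and 334 fell (63.3%). Median differences were 0.46 for the ZNF genes of this chromosome and -0.37 for its other genes. The chromosome 19 members have a median genomic span of 18618 bp and the other genes one of 12027 bp, and in all genes the difference followed span. The split was therefore also read within classes of span. Between 14282 and 28470 bp, the middle tercile of the members, 24 of 35 chromosome 19 members rose and 2 fell, and 2 of 119 other chromosome 19 genes rose and 73 fell. Under 14282 bp, 12 of 34 members rose and 12 fell, and 2 of 307 other genes rose and 207 fell. Over 28470 bp, 14 of 25 members rose and 4 fell, and 12 of 102 other genes rose and 54 fell. In each class a larger share of the ZNF genes rose than of the other genes of the chromosome. The classes matched span only in part. Median spans of members and other genes were 21679 and 20670 bp in the middle class. They were 9829.5 and 6747 bp in the short class, and 33294 and 43732 bp in the long class.

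Chromosome 16 differed from this. Of its 23 members 3 rose (ZNF75A, ZNF778 and ZNF200, by 0.999, 0.60 and 0.57, named after their values were seen; ZNF778 did not pass without RWDD4 clone 5) and 14 fell, which is 13.0% and 60.9%. ZNF778 and ZNF200, with control means of 5.88 each, reached the level limit through the RWDD4 clones alone. Their rises are therefore partly set by the rule. Of 395 other genes of chromosome 16 with a mean of at least 6, 84 rose (21.3%) and 184 fell (46.6%). The chromosome 16 members were short, with a median span of 11510 bp. The 109 members on neither chromosome had 55 rises and 15 falls and a median of 0.40, and of 6509 other genes elsewhere 2730 rose and 1630 fell. The counts by chromosome were made after the data had been seen, and the difference between them was not tested.

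**Figure D3:**
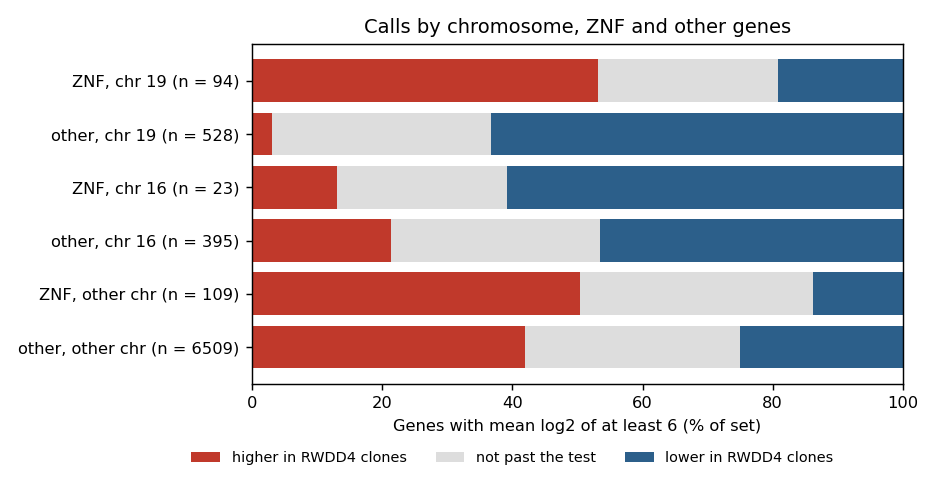
Share of genes called higher, called lower or not past the test in the RWDD4 clones (limma adjusted p under 0.05), in percent, for ZNF genes and other genes with a mean log2 of at least 6 on chromosome 19, chromosome 16 and the other chromosomes. On chromosome 19, 53.2% of ZNF genes and 3.03% of other genes were higher, and on chromosome 16 these shares were 13.0% and 21.3%.

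Neighbouring ZNF genes were then read in the order of protein-coding genes along each chromosome. A run was defined, after the data had been seen, as an unbroken row of ZNF, ZFP, ZSCAN or ZKSCAN genes with at least 4 members. Runs are named by their first and last zinc finger gene, which may lie under the level limit. There were 10 such runs with 60 members, and 8 runs were on chromosome 19. In 6 runs at least 2 members rose and none fell, in 3 at least 3 members fell and none rose, and 1 run held both directions. In the run from ZNF699 to ZNF846, 5 of 6 members rose (median 1.01): ZNF699, ZNF121 and ZNF266 by 2.28, 1.58 and 1.14, ZNF562 by 0.87 and ZNF426 by 0.82, with ZNF561 at 0.21 (SE 0.13). ZNF121 shows the pattern by clone, with 8.86, 9.13, 9.25 and 9.27 in RWDD4 clones 17, 24, 5 and 6 and 6.98, 7.85, 7.38 and 7.998 in the control clones. In the run from ZNF627 to ZNF791, 7 of 8 members rose (median 0.995), led by ZNF627, ZNF440, ZNF844 and ZNF791 at 1.66, 1.43, 1.33 and 1.30, and ZNF442 lay at -0.03. ZNF878, the smallest of these rises at 0.28, did not pass without RWDD4 clone 17 or 5, without control clone 2 or 5, or after any of the 3 other scalings (quantile normalization, median centring and cyclic loess). In this run ZNF627 and ZNF440 (control means 5.54 and 5.30) reached the level limit through the RWDD4 clones alone. Their rises are partly set by the rule, and the run's count and median include them.

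Toward the far end of chromosome 19 runs of opposite sign lay on the same arm. In the run from ZNF524 to ZNF580, 4 of 5 members fell, ZNF581 by 0.58, ZNF580 by 0.52, ZNF524 by 0.42 and ZNF784 by 0.33. In the next 2 runs members rose. All 4 members from ZNF805 to ZNF304 rose by 0.43 to 0.96, of which ZNF805, ZNF543 and ZNF304 did not pass after quantile normalization, and 6 of 9 members from ZNF530 to ZNF256 rose, led by ZNF776, ZNF417 and ZNF134 at 1.24, 1.10 and 0.96. ZNF587B, the smallest of these 6 rises at 0.37, did not pass after any of the 3 other scalings or without RWDD4 clone 5. A second probe set of ZNF551, which rose by 0.79 in that run, lay at -0.16. ZNF417 of the same run reached the level limit through the RWDD4 clones alone. In the runs from ZNF606 to ZNF8 and from ZNF766 to ZNF83, 2 of 5 and 2 of 6 members rose and the rest did not pass, with medians of 0.09 and 0.07. In the run from ZNF584 to ZNF446 ZNF584 rose by 0.57 and ZNF324 fell by 0.46. On chromosome 16, 4 of 6 members from ZNF768 to ZNF689 fell by 0.25 to 0.39, and on chromosome 7, 3 of 7 members from ZNF786 to ZNF746 fell, with ZNF282 and ZNF777 at -0.52 and -0.42. The third, ZNF746 at -0.25, did not pass without any 1 clone other than RWDD4 clone 6 or control clone 2. The 4 falls of the chromosome 16 run did not pass with the span trend removed, nor did those of ZNF524, ZNF784 and ZNF324 on chromosome 19. Single clones also mattered to these small differences. ZNF747 did not pass without RWDD4 clone 24, 5 or 6 or control clone 2 or 4, ZNF688 without RWDD4 clone 17, 5 or 6 or control clone 2 or 5, and ZNF764 without any 1 clone other than control clone 3. ZNF784 and ZNF324 did not pass without RWDD4 clone 5, ZNF543 without RWDD4 clone 6, and ZNF304 without RWDD4 clone 17 or 5 or control clone 4.

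Pairs of adjacent members were also counted. Of 49 pairs, both genes passed the test in 20, and in 20 of 20 they moved the same way, 11 pairs up and 9 down. Among adjacent pairs of other genes with a mean of at least 6, both passed in 1417 and 1204 of these moved the same way (85.0%). Neighbours of like direction were thus frequent outside the ZNF genes too.

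**Figure D4:**
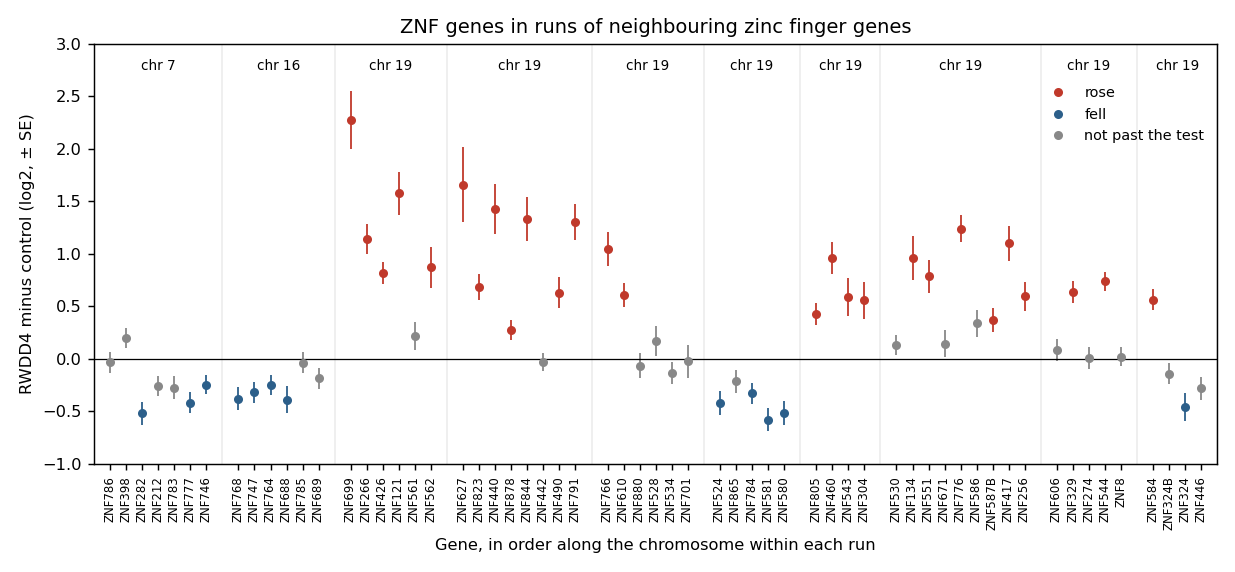
Fitted difference with its SE (RWDD4 minus control clones, log2) for 60 ZNF genes in 10 runs of neighbouring zinc finger genes, in order along each chromosome; red points rose, blue points fell and grey points did not pass the test. The runs that open with ZNF699 and ZNF627 reach 2.28 and 1.66, and the run from ZNF524 to ZNF580 lies below 0 throughout.

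Genomic span varied with the difference among the members too. Across the 226 members the Spearman rho between span and difference was 0.33, and across the 7658 genes at that level it was 0.49. Genes share the arrays and neighbours share their span, so these values are descriptions. In the tercile of members with the shortest span 24 of 76 rose and 31 fell (median -0.20), in the middle tercile 41 of 75 rose and 7 fell (median 0.50), and in the longest 43 of 75 rose and 9 fell (median 0.56). Other genes at the same level and the same cuts gave medians of -0.27, -0.07 and 0.53. Of these other genes 375 of 2686 rose at short span, 459 of 1385 (33.1%) in the middle and 1996 of 3361 (59.4%) at long span, beside 31.6%, 54.7% and 57.3% of the members. With the trend over span removed from each array, 112 members rose and 34 fell, and of the genes first called 106 of 108 still rose and 28 of 47 still fell.

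**Figure D5:**
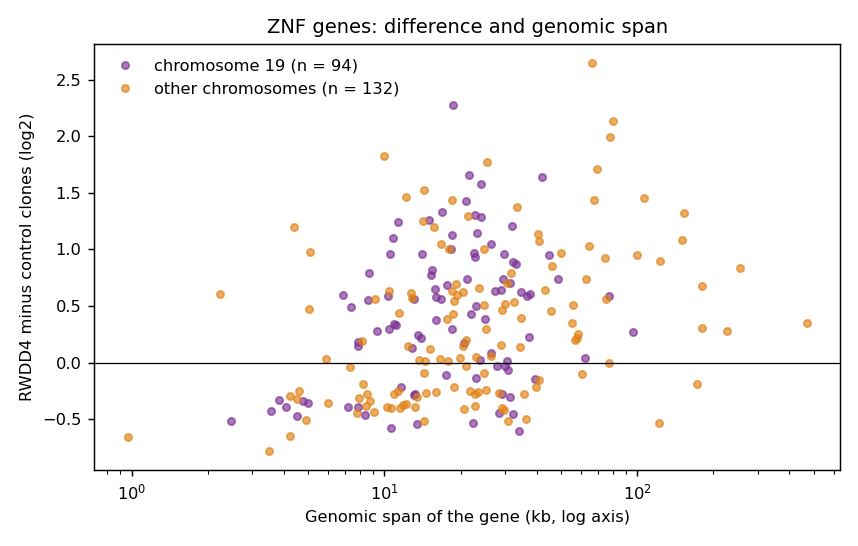
Fitted difference (RWDD4 minus control clones, log2) against genomic span in kb on a log axis for 226 ZNF genes, 94 of them on chromosome 19. Members of the shortest tercile have a median of -0.20 and those of the longest 0.56, and points of both chromosome classes lie above and below 0.

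ZNF genes under the level limit were read beside the members. Of these 245 genes 92 rose and 20 fell (37.6% and 8.16%), with a median of 0.18. Of the 6981 other genes under the limit 10.2% rose and 14.3% fell, with a median of -0.12. The zinc finger families ZBTB, ZSCAN, ZKSCAN and ZFP, the nearest in kind, had 48 genes with a mean of at least 6, of which 25 rose and 10 fell (52.1% and 20.8%), with a median of 0.42. The shares of these families and those of the ZNF members lay close together, and the difference between them was not tested.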

How the data were processed

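The authors deposited log2 values per probe set for 8 arrays, 1 per clone. Partek and RMA are listed, with no version, in the submitters' processing notes. RMA subtracts background, gives the probe values of all arrays 1 distribution and then combines a set's probes, which compresses folds near background. Array medians of the combined values still ran from 4.89 to 4.96 over probe sets. Over genes with a mean of at least 6 they ran from 7.26 to 7.72. Array depth is set by probe number, and the number of arrays limits the precision; a background level was not measured here. Probe sets with 1 gene symbol stood for 14884 genes, each read by its probe set of highest mean. RWDD4 minus control clones was fitted over all genes (limma 3.58.1, lmFit then eBayes; R 4.3.3). The test was two-sided, had no covariate, and p-values were adjusted by Benjamini-Hochberg. A gene rose or fell when its adjusted p was under 0.05. Clones of a group came from separate isolates, and p-values set the group difference against the spread between them. With 1 array per clone, that spread includes variation between arrays. The eBayes step moderates it with the spread of all genes. The steps were tested on simulated data.

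Genes named were the 12 largest rises and 12 largest falls without overlap, members of 4 role lists, the 4 largest differences among KRAB silencing partners with TRIM28 and SETDB1, the genes beside the level limit, and, after their values were seen, members of runs and a few others. The members and lists were chosen with earlier results of these data known. Chromosome, gene order and span came from a GRCh38.p14 gene table, whose coordinates were not otherwise used. Alternatives covered the variance model, probe set choice, a level filter, 3 scalings, array weights, span, a within-group axis and each clone left out. Python 3.11.15 drew the figures.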

Additional observations from a re-analysis of the deposited data

Results flagged for a closer look

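Of 252 groups of 4 clones (126 named genes in 2 groups), 11 held a clone that stood apart from the other 3 beyond Dixon's 95% limit on the gap over the range; chance flags about 1 in 20 groups. Control clone 2 was that clone in 5 of the 11. It was lowest for ZNF318 (6.62, the others 7.40 to 7.44), ZNF562 (6.30, the others 6.98 to 7.08), ZNF8 (8.99, the others 9.20 to 9.23) and CHD4 (8.82, the others 9.52 to 9.62), and highest for ZNF581 (10.15, the others 9.75 to 9.80). Control clone 3 was lowest for ZNF395 (7.89) and ZNF689 (7.26), and control clone 5 was highest for ZNF777 (7.72). Among RWDD4 clones, clone 24 was lowest for ZNF106 (9.11, the others 9.41), clone 17 highest for ZNF524 (7.46) and clone 6 lowest for RWDD4 itself (9.87).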

How the results depend on the processing

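Under 16 of the 17 other settings the counts of members that rose (98 to 112) and the counts of silencing partners (18 to 24), chromosome 19 members that rose (44 to 55) and other chromosome 19 genes that fell (264 to 428) stayed within 1.5 times the values reported; members that fell numbered 34 to 66. Leaving out each clone gave 98 to 111 rises and 34 to 46 falls among the members, and median differences of 0.26 to 0.36. The median difference of the members was 0.20 after quantile normalization, 0.19 after median centring and 0.23 after cyclic loess. Median centring moved the median of all genes from -0.08 to -0.21. When array position along the within-group axis entered the fit, limma called 0 members up, 0 down, 0 silencing partners, 0 chromosome 19 members up and 0 other chromosome 19 genes down, and the members' median was 0.054; 25 members, 5 partners, 8 chromosome 19 members and 46 other chromosome 19 genes had an unadjusted p under 0.05. The groups do not overlap on this axis, so group and axis position cannot be told apart. In that fit 78 of 126 named genes lost their call and 17 changed sign without passing: ZNF627 (-0.41), ZNF543 (-0.38), ZNF304 (-0.31), ZNF217 (-0.28), ZNF134 (-0.19), CHD4 (-0.19), ZNF490 (-0.14), ZNF551 (-0.088), ZNF24 (-0.051), ZNF532 (-0.025), ZNF784 (0.0021), ZNF768 (0.0033), ZNF593 (0.12), ZNF276 (0.12), ZNF408 (0.13), ZNF324 (0.14) and ZNF688 (0.14). No paired analysis was possible because the 2 groups share only 1 clone number, 5, which names different isolates.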
